A study of Mus musculus with 16 samples.

Results

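Mature memory B cells were compared with pro-memory cells, the gate of B cells that already carries the memory marker CD38 but still holds the germinal centre reporter. The comparison uses 6 of the 16 RNA-seq libraries of the series: the 3 libraries of Fraction 7 (mature memory) and the 3 libraries of Fraction 5 (pro-memory), chosen by the sort gates in the labels and not by any measured transcript. The 2 libraries of Fraction 6 (pre-memory), which lies between them in the sort, show at which step each gene differed. All groups share 1 source. Naive B cells of C57BL/6 origin, heterozygous for the Bcl6-YFP reporter allele and for B1-8hi, a knocked-in heavy chain gene whose antibody binds the hapten NP, went by transfer into CD45.1+ wild-type recipients, which were immunised intraperitoneally with NP-CGG, the hapten on a carrier protein, in alum. On day 10 the spleen cells of 9 recipients were pooled, and donor cells that bound NP, expressed IgG1 and lacked CD138 were sorted. The 3 gates share the phenotype CD38-positive, GL7-negative. In Fraction 5 both Bcl6-YFP and Efnb1, a surface ligand of germinal centre B cells, were high. Fraction 6 was low for Bcl6-YFP and still high for Efnb1, and Fraction 7 was low for both. Because the B cells carry 1 knocked-in receptor chain, they model the response to 1 hapten. No label states whether the libraries of 1 gate stem from different pools of mice. P-values here set each difference between gates against the spread of libraries within gates, estimated over all 16 libraries. That spread may therefore be technical.

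Germinal centres are clusters in B cell follicles in which activated B cells divide, mutate their antibody genes and are selected for binding. The factor BCL6 holds this state in place, and cells that leave it as memory B cells stop dividing, live long and recirculate through blood and lymphoid organs. The receptors for the lipid sphingosine-1-phosphate take opposite parts in this: S1PR2, acting through the G protein subunit Gα13, keeps cells inside the germinal centre, while S1PR1 draws cells out of lymphoid tissue into blood or lymph and is controlled by the factor KLF2.

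The deposited values are FPKM, fragment counts scaled to transcript length and to the mapped reads of the library. They summed to between 416741 and 492578 in the 16 libraries. Depth relative to Fraction 5 library 1 was read from the most frequent ratio of low values of the same gene. This takes that ratio to stem from equal small counts in both libraries. It put the 8 libraries of Fractions 5, 6 and 7 at 0.865 to 1.11. The absolute number of reads is unknown. Libraries of the same gate correlated at 0.951 to 0.960 within Fraction 5 and at 0.951 to 0.957 within Fraction 7, against 0.874 to 0.902 between the gates. These are Pearson correlations of log2(FPKM + 1) across genes, which are not independent replicates. All 10 listed markers of B cell identity passed the filter on low values, and the highest, Cd79a, part of the B cell receptor, lay at 1105 to 1451 FPKM in the 6 libraries. Libraries 2 and 3 of Fraction 7 stood apart from library 1 in plasma cell transcripts (values are given with that group below).

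The gates could be read in the transcripts they were set on. Bcl6 measured 191, 183 and 194 FPKM in the Fraction 5 libraries, 75.3 and 70.2 in Fraction 6, and 20.5, 18.4 and 15.0 in Fraction 7. Efnb1 measured 67.2, 57.9 and 67.5 in Fraction 5, 32.4 and 27.5 in Fraction 6, and 2.14, 2.37 and 1.93 in Fraction 7. Both transcripts followed the labels with no overlap between gates, and as sort markers they are no finding. Efnb1 transcript in Fraction 6 was already below that of Fraction 5, although both gates were set high for the protein. Cd38, for which all 3 gates were sorted positive, was at 48.2 to 49.2 FPKM in Fraction 5 and 71.3 to 77.0 in Fraction 7.

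Of 11266 genes tested with limma, 5368 (47.6%) differed between mature memory and pro-memory cells at an adjusted p under 0.05. They comprised 2152 genes higher in Fraction 7 (19.1%) and 3216 lower (28.5%), and 530 of the former and 702 of the latter differed by more than 1 on the log2 scale. Those 2 percentages are the background against which the counts of each gene list stand. The 3 libraries of one gate did not overlap the 3 of the other for 6055 genes (53.7%). The median log2 change over all genes was -0.05. The balance of directions depended on scaling: 40.1% of calls were higher in Fraction 7 with the values as deposited, 48.9% (2708 higher, 2831 lower) after quantile normalization and 50.02% (2789 higher, 2787 lower) after median-ratio scaling. With Fraction 7 library 1 as the only mature memory library, 1788 genes were called higher (15.9%) and 2036 lower (18.1%), and 3547 of the 5368 calls were kept. In these bulk samples, fewer cells of a type and less RNA per cell cannot be told apart, here and in the values that follow.

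**Figure D1:**
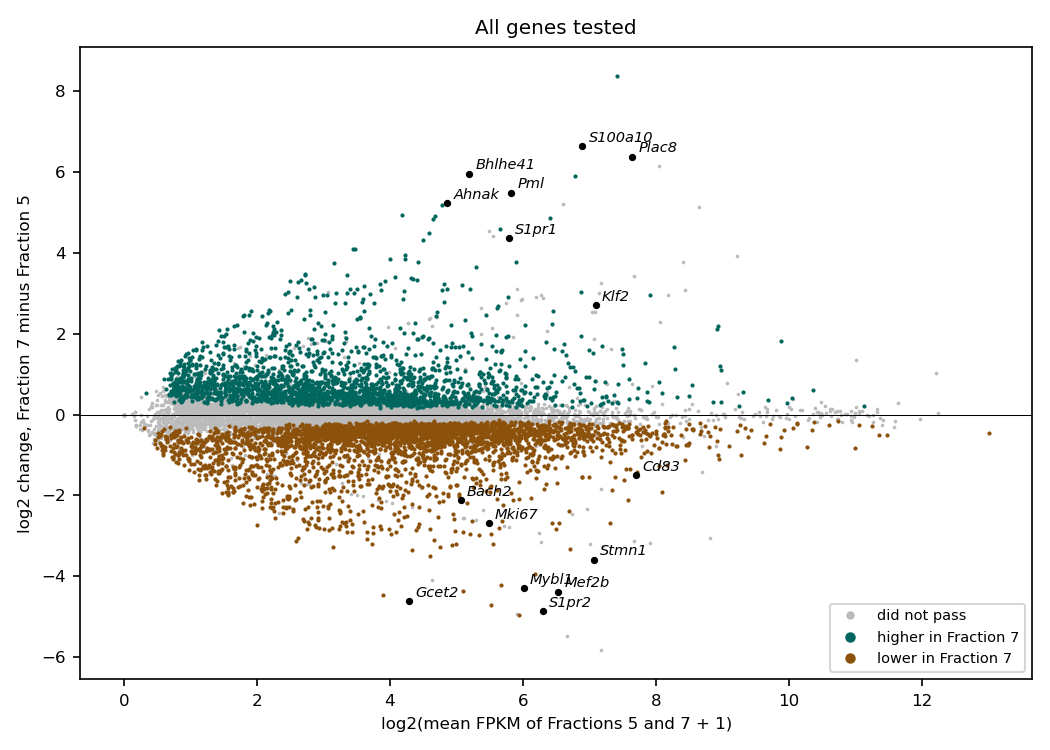
Each point is 1 of the 11266 genes tested, with the log2 of its mean FPKM over Fractions 5 and 7 plus 1 on the horizontal axis and its log2 change from Fraction 5 to Fraction 7 on the vertical axis. The 5368 coloured genes passed an adjusted p of 0.05, and the labelled genes include S1pr1 at 4.37 and S1pr2 at -4.86.

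The sphingosine-phosphate receptors S1pr1 and S1pr2 changed in opposite directions between the gates. S1pr1, the receptor for exit into blood and lymph, measured 4.08, 3.10 and 5.32 FPKM in the pro-memory libraries and 119, 98.1 and 96.7 in mature memory. Its log2 change was 4.37 ± 0.17 (SE), with a limma adjusted p of 4.2e-10. All mature memory libraries were far above all pro-memory libraries, and Fraction 6 lay between at 32.5 and 42.1. S1pr2, the receptor that confines cells to the germinal centre, measured 153, 148 and 153 FPKM in Fraction 5 and 4.10, 5.09 and 3.62 in Fraction 7, a fall of 35.5-fold in the means (log2 change -4.86 ± 0.10, adjusted p 6.6e-13). Here the order was the reverse, with Fraction 6 again between at 34.7 and 35.6, so that S1pr1 exceeded S1pr2 in every mature memory library and stood below it in every pro-memory library.

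Klf2, the factor upstream of S1pr1, was at 36.8, 29.0 and 40.0 FPKM in pro-memory cells and at 287, 204 and 217 in mature memory (log2 change 2.71, adjusted p 1.7e-08). Of 14 listed genes of sphingosine-phosphate reception and signalling, 13 passed the filter, 3 rose (S1pr1, Klf2, S1pr4) and 6 fell (S1pr2, S1pr3, Gna13, Gnai2, Rgs1, Rgs13), against 19.1% and 28.5% of all genes. The median of the 13 was 0.11 beside -0.05 over all genes, and 6 of them rose after quantile normalization and 5 after median-ratio scaling. Gna13, which encodes Gα13, the transducer of S1PR2, fell by 0.82 on the log2 scale (47.4, 48.5 and 49.2 FPKM against 31.3, 27.0 and 23.0). Rgs13 and Rgs1, which damp signals of G protein-coupled receptors, fell by 3.27 and 1.38. Arhgef1, the exchange factor that acts downstream of Gα13, was at 204, 193 and 230 FPKM against 230, 219 and 235 and did not pass the test. The fall of S1pr2 was the largest on the list, and that of Gna13 was small beside it.

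Receptors for chemokines and other attractants were mostly higher in mature memory: of 17 listed, 11 passed the filter, 8 rose and 1 fell, with a median log2 change of 0.71. Ccr7, the receptor for entry into T cell zones and lymph nodes, measured 0.581, 1.67 and 1.26 FPKM in Fraction 5 and 54.6, 32.9 and 39.2 in Fraction 7. Cxcr3, a receptor for chemokines of inflamed tissue, measured 2.38, 2.02 and 3.11 against 39.8, 30.6 and 35.6. Ccr6, a receptor long used to mark memory B cells, measured 22.5, 29.1 and 21.6 against 145, 160 and 140. None of these 3 genes overlapped between the gates, and their log2 changes were 4.32, 3.38 and 2.56. Gpr183, the oxysterol receptor EBI2 that guides cells to the outer follicle, rose by 1.68. Cxcr4, which holds cells in the dark zone of the germinal centre, was the member that fell, from 66.6, 77.5 and 69.4 FPKM to 19.3, 21.2 and 14.4. Cxcr5, the follicle homing receptor, had overlapping libraries (131, 142 and 127 against 156, 128 and 123 FPKM), with a log2 change of 0.02 ± 0.09 (SE).

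Adhesion molecules were more often higher than lower in mature memory. Of 17 listed integrins and adhesion molecules, 15 passed the filter, 9 rose and 5 fell, against 19.1% and 28.5% of all genes. The median log2 change of the 15 was 0.68 beside -0.05 over all genes. The α4 and β7 integrin chains, which pair into a receptor for mucosal vessels, rose together: Itga4 from 12 to 13.5 FPKM in the Fraction 5 libraries to 71.9 to 105 in Fraction 7, and Itgb7 from 28.4 to 29.8 to 124 to 171. Itgam, the αM chain, was near 0 in Fraction 5 (0.0661 to 0.0828 FPKM) and at 8.22 to 12.8 in Fraction 7. Itgb3, Itgb2, Itgb1 and Icam1 fell, by 2.33, 0.66, 0.89 and 0.68 on the log2 scale, Itgb3 from 8.82 to 10.9 FPKM to 0.895 to 1.55.

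**Figure D2:**
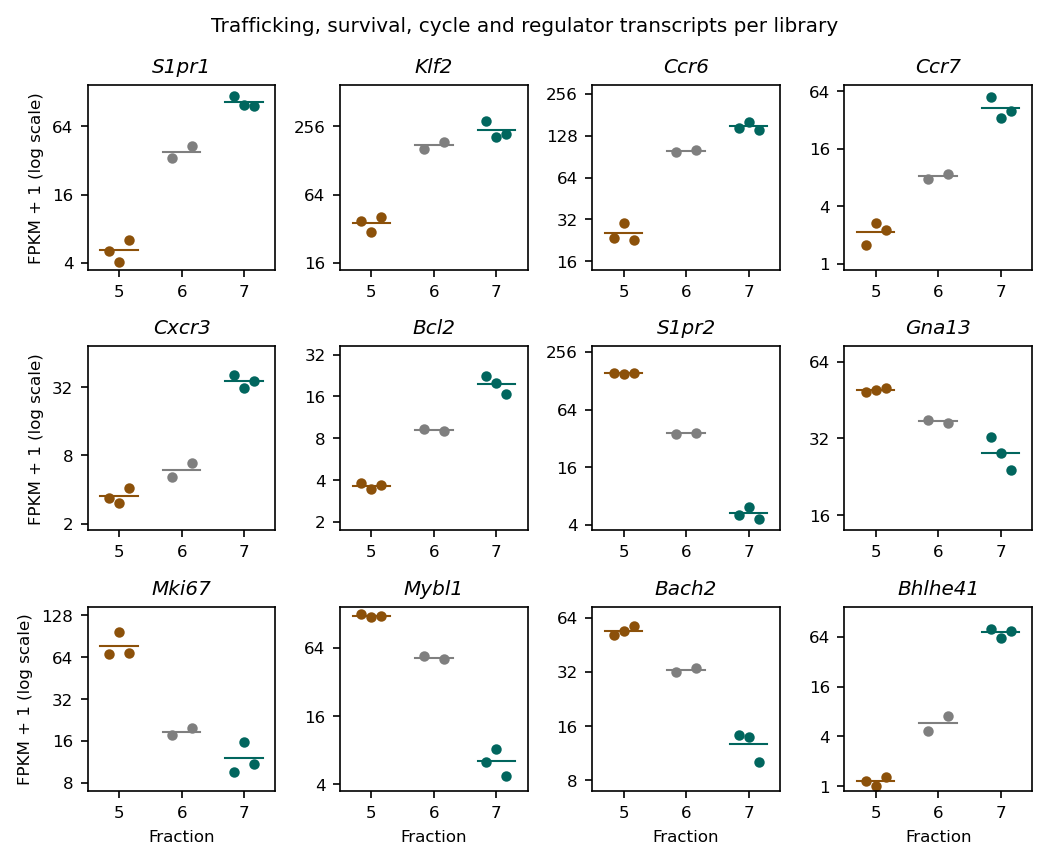
Points are single libraries of Fraction 5 (3), Fraction 6 (2) and Fraction 7 (3), with FPKM + 1 on a log axis, and bars are gate means. Cxcr3 has Fraction 6 close to Fraction 5, at 4.18 and 5.81 FPKM, while Klf2 has Fraction 6 close to Fraction 7, at 160 and 187 FPKM.

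Germinal centre identity was lower almost throughout. Of 22 listed genes, 20 passed the filter, 17 fell and none rose, and the median log2 change was -2.75 beside -0.05 for all genes. The list includes the gate genes Bcl6 and Efnb1. The largest falls outside the gates were S1pr2, Gcet2 (now named Gcsam), a brake on lymphocyte migration, Mef2b, a co-activator of Bcl6 expression, Mybl1, a Myb-family transcription factor, and Gm600 (now Nuggc), a nuclear GTPase of germinal centre B cells. Mef2b measured 182, 165 and 178 FPKM in Fraction 5 and 7.43, 11.7 and 4.58 in Fraction 7. Gcet2 was at 36.6 ± 5.5 (SD, n = 3) and 0.518 ± 0.17 FPKM. The gates were apart in every library for both, by 22.1-fold in the mean of Mef2b. Lmo2, St6galnac4 and Myb did not pass the test, and Lmo2, a transcription factor strong in germinal centre cells, was as high in Fraction 7 (246 ± 40 FPKM) as in Fraction 5 (243 ± 21, SD, n = 3), with a log2 change of 0.01 ± 0.11 (SE).

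Genes of antibody gene diversification and DNA repair were mostly lower. Of 23 listed hypermutation and repair genes, 15 fell and 1 rose. Those that fell include H2afx, the histone variant marked at DNA breaks (fall of 2.70), Rev1, a DNA polymerase that copies past damaged bases (1.65), and Brca1, which acts in homologous repair (1.81). The 1 that rose, Prkdc of the end-joining pathway, did so by 0.25 and lost its call when any of 4 libraries was left out.

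Cell division genes were lower without exception on the mitosis list: 46 of 46 tested genes fell, with a median of -2.53 and a range from -3.35 (Cdca3) to -0.67 (Cdc25b). Mki67, the proliferation marker, measured 65.9, 96.6 and 67.2 FPKM in Fraction 5, 16.5 and 18.7 in Fraction 6, and 8.57, 14.8 and 9.89 in Fraction 7. Fraction 7 was below Fraction 5 in every library, while its library 2 came close to the Fraction 6 values. Cdc20, the activator of the anaphase-promoting complex, measured 38.6, 50.3 and 44.1 FPKM against 2.46, 5.96 and 5.12. Cdk1, the mitotic kinase, measured 10.0, 19.0 and 13.1 against 0.744, 1.12 and 1.25, and Ube2c, the ubiquitin-conjugating enzyme of the same complex, 57.5, 72.8 and 62.3 against 4.85, 8.58 and 9.55. All 3 fell, by 3.09, 2.85 and 2.95 on the log2 scale. Of 40 DNA replication genes, 39 fell, with a median of -1.71. Mcm5, a subunit of the replicative helicase, measured 38.5, 51.1 and 43.5 FPKM against 7.48, 11 and 9.36, and Lig1, the ligase that joins lagging strand fragments, 32.4, 37.8 and 35.3 against 5.88, 6.83 and 6.58. Tyms, thymidylate synthase, did not pass the test, and its mature memory libraries disagreed. It measured 14.2, 13.5 and 12.2 FPKM in Fraction 5 and 10.2, 18.2 and 32.3 in Fraction 7, so that with Fraction 7 library 1 alone it was called lower (log2 change -0.36, adjusted p 0.035) and all 40 genes fell, whereas without that library 39 fell and 1, Tyms, rose. Its reads may also be shared with the pseudogene Tyms-ps.

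Since these genes fell together, the sequence before their start sites is shown for 3 mitosis genes and 1 replication gene, taken from RefSeq (GRCm38.p6, another build than the mm9 of the deposited values). The letters TTTGAA are the core of the cell cycle homology region that the DREAM and MuvB complexes bind, and ATTGG is the CCAAT box of the factor NF-Y. Both were searched on both strands in the 250 bases before the start, and neighbouring matches could share end bases. The printed genes were chosen after their matches were seen, and capitals mark the matches, read on either strand.
Cdc20, minus strand, chr4:118437345-118437493: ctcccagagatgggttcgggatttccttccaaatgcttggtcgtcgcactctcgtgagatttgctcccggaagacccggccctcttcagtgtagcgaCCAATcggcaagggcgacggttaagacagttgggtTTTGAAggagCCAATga
Cdk1, minus strand, chr10:69352914-69353062: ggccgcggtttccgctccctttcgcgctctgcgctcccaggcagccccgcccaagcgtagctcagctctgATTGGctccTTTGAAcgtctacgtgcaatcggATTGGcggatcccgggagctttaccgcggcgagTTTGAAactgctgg
Ube2c, plus strand, chr2:164769779-164769927: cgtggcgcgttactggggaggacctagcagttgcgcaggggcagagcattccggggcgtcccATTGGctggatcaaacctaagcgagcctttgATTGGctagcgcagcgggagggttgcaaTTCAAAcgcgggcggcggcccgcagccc
Mcm5, plus strand, chr8:75109339-75109408, with the E2F-type letters GCGCCAAA in capitals: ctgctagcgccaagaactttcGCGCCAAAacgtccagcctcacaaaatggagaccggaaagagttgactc
TTTGAA stood in 11 of the 39 mitosis promoters with a window (28.2%) and in 10.6% of the 7902 tested genes with one. ATTGG stood in 29 of the 39 (74.4%), in 19 of 32 replication promoters (59.4%) and in 37.9% of tested genes. Both motifs together stood in 9 of the 39 (23.1%) and in 4.39%. For replication genes the letters TTCCCGCC, TTGGCGCC or TTTGGCGC, which E2F factors recognise and which overlap one another and in part ATTGG, stood in 7 of 32 promoters (21.9%) and in 5.43% of tested genes. In replication promoters TTTGAA stood in 4 of 32 (12.5%), near its share of tested genes. The E2F letters stood in 3 of 39 mitosis promoters (7.69%). CCACACCC or CCCCACCC, also searched, stood in 10.3% of mitosis promoters, 15.6% of replication promoters and 13.7% of tested genes. They stood in 7 of 18 germinal centre identity promoters (38.9%) and in 3 of 11 of the sphingosine-phosphate list (27.3%). These matches describe the letters only, and no binding was measured.

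Not all cell cycle genes were lower. Of 28 listed G1 cyclins, kinases and inhibitors, 24 passed the filter, 15 fell and 5 rose. Ccnd3, the D cyclin that germinal centre cells depend on, measured 155, 170 and 156 FPKM in pro-memory cells and 26.3, 25.1 and 21.5 in mature memory, while Ccnd2, the D cyclin of resting and newly activated B cells, measured 6.25, 8.13 and 4.55 against 19.0, 20.4 and 16. The 2 cyclins thus moved in opposite directions with no overlap. The inhibitors Cdkn1b (p27) and Rb1, the retinoblastoma protein, rose by 1.14 and 1.78. Myc, a driver of growth, rose by 0.95, from 14.2, 14.6 and 18.7 FPKM to 31.5, 30.3 and 32.1, although the mitosis genes fell. E2f8 and E2f7, repressors that are themselves cell cycle genes, fell by 2.78 and 1.64.

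Factors linked to quiescence were mostly higher: 14 of 23 rose and 3 fell, with a median of 0.43. Klf3, a relative of Klf2, measured 1.62, 2.30 and 1.72 FPKM against 35.2, 29.0 and 25.3. Tsc22d3 (GILZ), a glucocorticoid-induced inhibitor of activation, and Txnip, which limits glucose uptake, rose by 1.77 and 1.09. Foxo1, a quiescence factor in naive lymphocytes that also serves the dark zone, was in contrast lower, at 41.7, 48.4 and 38.4 FPKM against 17.1, 19.7 and 12.9. Each of these genes had gates that did not overlap. Tob2 fell by 0.31 but lost its call under 10 of the alternatives.

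Survival genes did not move as a group. Of 17 tested, 3 rose and 5 fell, and the median was -0.03 beside -0.05 over all genes, a sign that turned to 0.05 after quantile normalization. With Fraction 7 library 1 alone 3 fell. Bcl2, the anti-death protein of resting B cells, measured 2.81, 2.48 and 2.66 FPKM in pro-memory cells and 21.6, 19.0 and 15.7 in mature memory, with Fraction 6 at 8.34 and 8.09 (log2 change 2.43 ± 0.20, adjusted p 3.6e-07). Its relative Bcl2l1 (BCL-XL) went the other way, from 5.94, 7.78 and 8.61 to 3.14, 4.47 and 3.33. Mcl1, which germinal centre cells need, had a log2 change of -0.00 ± 0.09 (SE) at 199 to 207 FPKM against 186 to 236. Among the receptors for BAFF and APRIL, survival cytokines of B cells, Tnfrsf13c (BAFF receptor) fell by 0.90, Tnfrsf13b (TACI) rose by 0.88, and Tnfrsf17 (BCMA) was listed at 0 in the 3 pro-memory libraries and at 3.02, 2.44 and 4.73 in mature memory. The receptors thus differed in both directions. Of 22 listed death effectors, 21 passed the filter, 10 fell and 2 rose (1 with Fraction 7 library 1 alone or without any of Fraction 5 library 3 and Fraction 7 libraries 2 and 3). Fas, the death receptor of germinal centre B cells, measured 84.7, 95.6 and 87.1 FPKM against 20.3, 25.7 and 21.7, and Bid and Bad, which promote mitochondrial death signals, fell by 1.01 and 0.85. Bcl2l11 (BIM), the main antagonist of BCL2, did not pass at 9.74, 9.75 and 7.92 against 10.8, 9.48 and 7.45.

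Genes associated with memory B cells were higher: all 27 listed passed the filter, 22 rose and 3 fell, and the median log2 change was 2.04. Bhlhe41, a repressor, measured 0.159, 0 and 0.304 FPKM in Fraction 5 and 78.2, 60.7 and 74.9 in Fraction 7. Zbtb32, a zinc finger repressor that limits recall responses, measured 1.64, 0.527 and 0.943 against 49.3, 32.5 and 53.5. Both were close to the floor in pro-memory cells and abundant in every mature memory library. Hhex, a homeobox factor required for memory B cells, and its partner Tle3 rose by 1.96 and 1.70, and Ski, a corepressor, rose by 2.96. The 3 listed genes that fell were Bach2 (50.6, 52.8 and 56.7 FPKM against 13.2, 12.9 and 9.05), a repressor of plasma cell fate known to favour the memory path, Nt5e (CD73) and Anxa2. Bach2 was thus higher in every pro-memory library than in any mature memory library.

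The largest rises over all genes tested included S100a10, Plac8 and Ahnak, which are on the memory-associated list, and Pml, which is on none. S100a10 measured 1.30, 0.397 and 2.82 FPKM against 275, 171 and 257, Plac8 2.74, 2.88 and 6.16 against 430, 330 and 428, and Ahnak, a giant scaffold protein, 0.331, 0.539 and 0.569 against 73.9, 44.0 and 49.8. Pml, the organiser of PML nuclear bodies, measured 1.04, 1.44 and 1.99 against 124, 98.2 and 109. For these 4 genes no pro-memory library exceeded 6.16 FPKM and no mature memory library was below 44.0. S100a6, Sspn and Pdlim1 rose by 5.20, 4.94 and 4.92. Ly6c2 also stood among them, but its 3 mature memory libraries were spread at 16.1, 59.8 and 67.9. Snord87, a small nucleolar RNA, was listed at 0 in all Fraction 5 and Fraction 6 libraries and at 390, 369 and 260 in Fraction 7; RNAs this short are poorly measured in FPKM. Among falls, H1fx, a linker histone, measured 28.9, 28 and 25.3 FPKM against 0.159, 0.676 and 0.0730, Basp1, a membrane protein, fell by 3.94 and Stmn1 (stathmin), which destabilises microtubules, by 3.59. Rpl26, also among the largest falls, is uncertain because near-identical copies can split its reads.

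**Figure D3:**
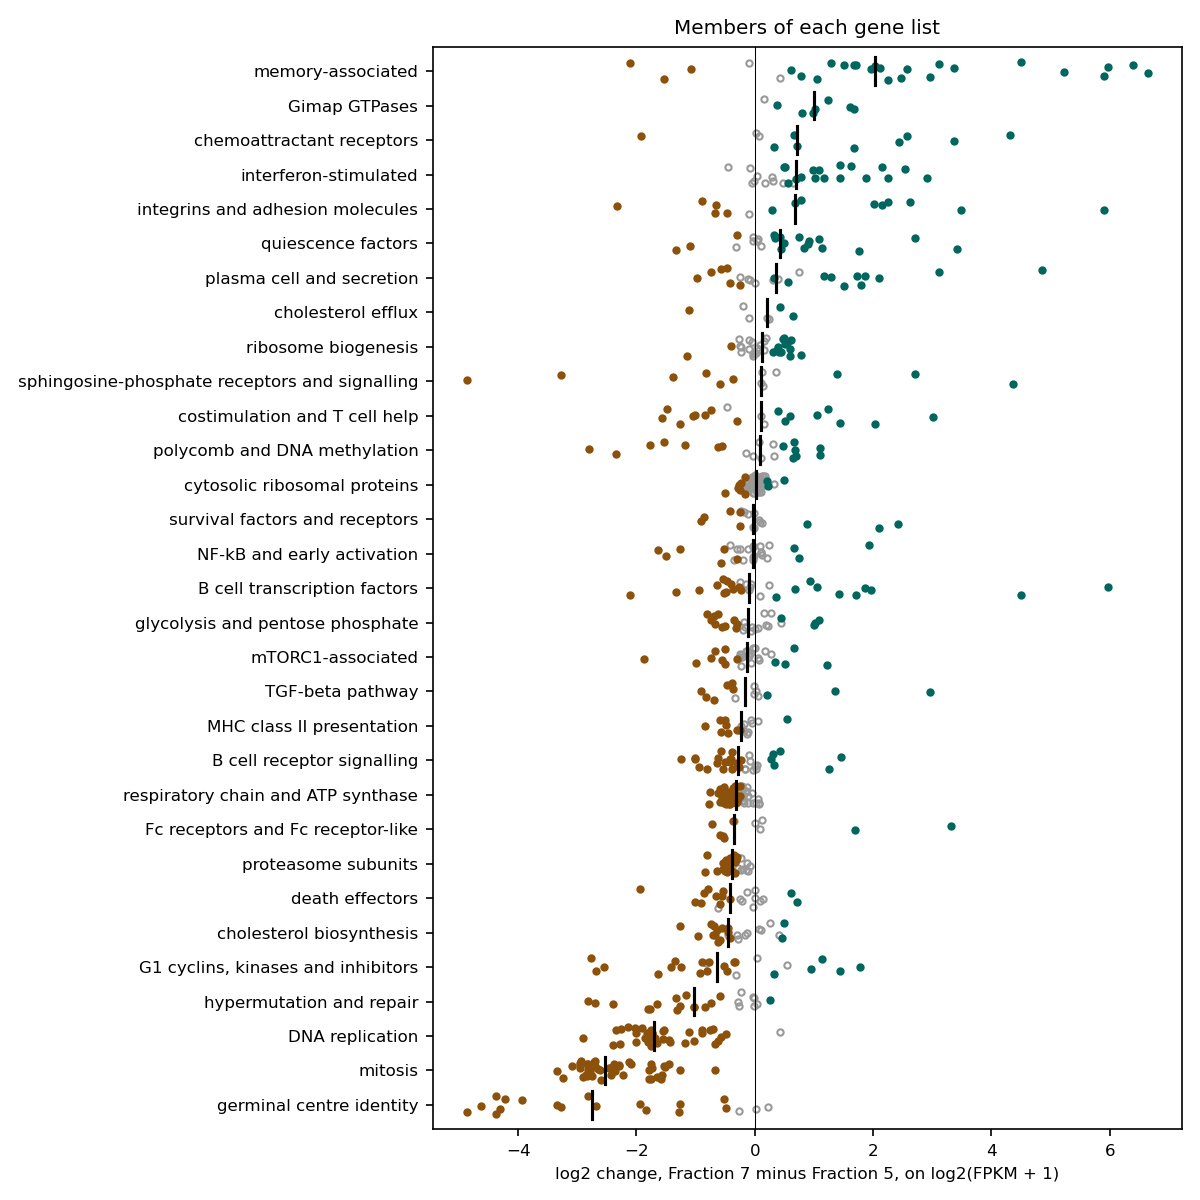
Each point is 1 tested member of a list, placed by its log2 change from Fraction 5 to Fraction 7, and the black bar is the list median. Filled points passed an adjusted p of 0.05 (green higher, brown lower), and medians run from -2.75 for germinal centre identity to 2.04 for memory-associated genes.

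Interferon-stimulated genes were higher in mature memory. Of 32 listed, 27 passed the filter, 17 rose and none fell, with a median of 0.69. Ifi203 measured 12.2, 13.7 and 10.1 FPKM in pro-memory cells, 43.0 and 48.1 in Fraction 6, and 102, 92.2 and 94.7 in mature memory. Ddx58, the RNA sensor RIG-I, measured 3.81, 4.35 and 3.12 against 21.3, 19.9 and 18.9, and Bst2 (tetherin) 7.20, 9.46 and 7.63 against 34.2, 30.0 and 32.6. These genes had no overlap between gates, yet the signalling factors Irf7, Irf9 and Stat2 did not pass the test. Leaving out 1 library gave 13 to 19 rises, and without Fraction 7 library 1 there was 1 fall. The Gimap GTPases, a family tied to lymphocyte survival, rose in 7 of 8 members, led by Gimap4 (140, 156 and 142 FPKM against 520, 441 and 455).

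Genes of B cell receptor signalling were more often lower than higher, and those of T cell help went both ways. Of 32 receptor signalling genes, 18 fell, against 28.5% of all genes, and 6 rose, a share near the 19.1% of all genes, with a median of -0.28. After quantile normalization 15 fell and 9 rose, with a median of -0.13. With Fraction 7 library 1 alone the median was -0.17. Fyn, a Src-family kinase, Pik3ap1 (BCAP), an adaptor for PI3 kinase, and Grb2, an adaptor, fell by 1.24, 1.01 and 0.94, whereas Malt1, a protease that signals towards NF-kB, and Ptpn22, a phosphatase, rose by 1.26 and 1.47. Of 19 tested costimulation and help genes, 8 rose and 8 fell. Il6ra, the IL-6 receptor, measured 1.29, 1.53 and 1.51 FPKM against 21.4, 17.2 and 17.5, and Cd80, a ligand of CD28 and a marker of memory subsets, 0.989, 0.712 and 1.04 against 8.06, 6.21 and 6.32. Its partner ligand Cd86 was lower instead, at 113, 99.8 and 123 FPKM against 48.6, 47.2 and 41.9, and so was Cd83, at 308, 282 and 329 against 109, 110 and 106. The 2 CD28 ligands therefore changed in opposite directions. Il21r, the receptor for the T follicular helper cytokine IL-21, fell by 1.05, and Cd274 (PD-L1) rose by 1.44. Among MHC class II presentation genes 8 of 18 fell (13 without Fraction 7 library 1) and 1, Ctss, rose. The class II chains H2-Aa, H2-Ab1 and H2-Eb1 did not pass, while Ciita, their master activator, fell by 0.59 and Rfx5, which binds their promoters, by 0.84. Of 26 tested genes of NF-kB and early activation 6 fell and 3 rose, both shares below those over all genes (28.5% and 19.1%). After quantile normalization 8 rose, and without Fraction 7 library 2 only 3 fell. Egr1, an immediate early factor, measured 24.7, 26.5 and 25.9 FPKM against 7.88, 7.29 and 10.3. Dusp2, a phosphatase that shuts off MAP kinases, fell by 1.27, and Ier2, another immediate early gene, rose by 1.93.

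Transcription factors of the B lineage split, with 10 of 29 higher and 12 lower. The balance depended on scaling and library: 11 were higher and 8 lower after quantile normalization, and 10 and 14 without Fraction 7 library 1. Pax5, the commitment factor of B cells, fell by 0.53 and Ikzf1 (Ikaros) by 0.94. Irf4, which sets plasma cell and germinal centre fates by its dose, rose by 1.87, from 4.99, 5.01 and 4.65 FPKM to 19.5, 20.6 and 21.4. Tbx21 (T-bet), an activator of Cxcr3, was low but rose by 1.42 (1.49 ± 0.50 to 5.58 ± 0.84 FPKM, SD, n = 3). Of the polycomb and DNA methylation genes, 7 of 20 rose and 7 fell. Ezh2, the histone methyltransferase that germinal centres require, Dnmt1, the maintenance DNA methyltransferase, and Phf19 fell by 1.54, 1.77 and 2.79, and Dnmt3a, Tet2 and Bmi1 rose by 0.69, 1.10 and 1.11. Of 11 tested Fc receptors and their relatives, 2 rose and 5 fell, against 19.1% and 28.5% of all genes, with a median of -0.35. The 2 that rose were Fcrl5 and Fcgrt, by 3.32 and 1.69, and the inhibitory receptor Fcgr2b fell by 0.53. Among TGF-beta pathway genes 3 of 14 rose, a share near the 19.1% of all genes, with Smad3 up by 1.36, and 6 fell, against 28.5% of all genes.

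Metabolic lists moved by small amounts, and several depended on the library or the scaling. Of 57 genes of the respiratory chain and ATP synthase, 37 fell and none rose, with a median of -0.32. With quantile normalization 22 fell and 3 rose, and with Fraction 7 library 1 alone 20 fell. Atp5g3, a subunit of the ATP synthase, measured 182, 213 and 199 FPKM against 119, 107 and 119. Proteasome subunits fell in 23 of 31 genes, 15 after quantile normalization and 13 with that library alone. Cholesterol biosynthesis fell in 13 of 24 genes and rose in 2 (4 without Fraction 7 library 2, 1 with library 1 alone), and Acat2, which joins acetyl-CoA units at its start, fell by 1.27. In glycolysis and the pentose phosphate route 10 of 26 genes fell and 4 rose: the enzymes Gapdh and Pgk1 fell by 0.81 and 0.74, and the glucose transporters Slc2a1 and Slc2a3 rose by 1.02 and 1.08. With library 1 alone 5 of these genes fell, and after median-ratio scaling 8 rose. Of 7 tested genes of the cholesterol efflux list 2 rose and 1 fell, against 19.1% and 28.5% of all genes, with a median of 0.20. After quantile normalization 3 rose. Apoe, a lipid carrier, was the 1 that fell, and measured 685, 615 and 722 FPKM against 369, 301 and 272. Of 32 ribosome biogenesis genes 13 rose, among them Polr1a and Polr1b, subunits of RNA polymerase I, by 0.48 and 0.62. Rises numbered 17 after quantile normalization, and 9 without Fraction 5 library 1 or without Fraction 7 library 1. The 2 that fell were Bysl and Rrs1, and 4 fell without Fraction 5 library 1 or Fraction 7 library 3, and 1 with Fraction 7 library 1 alone. Of 52 cytosolic ribosomal proteins 3 rose and 7 fell, but 14 rose after median-ratio scaling and none with only the 2 gates in the fit. With Fraction 7 library 1 alone 9 rose and 1 fell, and without that library none rose and 9 fell, so that the balance depended on the library as well as on the scaling. Leaving out any other library of the 2 gates gave 1 to 6 rises and 4 to 7 falls. Among mTORC1-associated genes 4 of 29 rose and 8 fell, neither share above that over all genes (19.1% and 28.5%), and Psat1 of serine synthesis fell by 1.88. The number of rises was 2 without Fraction 7 library 2 and with library 1 alone.

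Plasma cell and secretion genes were uneven between the mature memory libraries. Sdc1, which encodes CD138, the marker sorted against, measured 0, 0 and 0.234 FPKM in Fraction 5 and 0.502, 4.44 and 4.51 in Fraction 7. Igj (now Jchain), the joining chain of secreted antibody, measured 84.4, 96.0 and 104 against 46.9, 296 and 292, and Xbp1, the factor that expands the secretory pathway, 44.1, 49.4 and 46.4 against 34.0, 84.9 and 81.3. Libraries 2 and 3 of Fraction 7 were thus high for all 3 genes, and library 1 lay below pro-memory cells for Igj and Xbp1, neither of which passed the test. Of 24 tested list members 11 rose and 6 fell (median 0.36), and with library 1 alone 8 rose and 7 fell (median 0.02). The rise of Sdc1 lost its call there, with an adjusted p of 0.062, but Tnfrsf17, Irf4, Fkbp11, a chaperone of the secretory pathway, and Pdia4, a disulfide isomerase, were raised in library 1 as in the others. Fkbp11 measured 0.483, 0.444 and 0.278 FPKM against 13.7, 8.71 and 11.6.

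**Figure D4:**
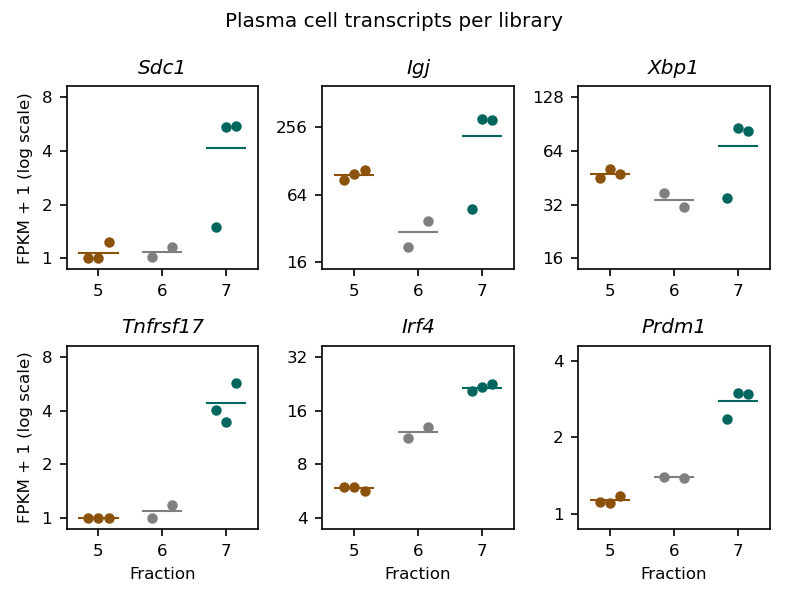
Points are single libraries, with FPKM + 1 on a log axis and bars at gate means. In Fraction 7, library 1 is the low point for Sdc1 (0.502 FPKM), Igj (46.9) and Xbp1 (34.0), whereas Irf4 lies at 19.5 to 21.4 in all 3 libraries.

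Markers of other cells differed in level, with those of NK cells near 0 and haemoglobin transcripts the highest outside the B lineage. The T cell markers summed to 25.5 to 29.5 FPKM in Fraction 5 and 8.26 to 12.6 in Fraction 7, most of it Lck, and 8 of 11 were under 1 FPKM in every Fraction 7 library. The 9 NK cell markers summed to 1.14 to 1.64 and 1.17 to 2.49, and the 13 monocyte and macrophage markers to 12.1 to 14.7 and 10.2 to 19.3. The 8 dendritic cell markers summed to 20.8 to 34.0 and 14 to 20.9, most of it Flt3. The 12 erythroid and platelet markers summed to 87.1 to 220 FPKM in Fraction 5 and 96.8 to 138 in Fraction 7, nearly all from haemoglobin genes such as Beta-s (32.0, 78.3 and 30.5 against 32.4, 54.4 and 32.2), whose sums overlapped between the gates. Neutrophil markers were high in 1 library of each gate: they summed to 35.9 in Fraction 7 library 3, where S100a8 stood at 15.2, against 4.15 and 4.67 in the other 2, to 16.2 in Fraction 5 library 2 against 1.12 and 1.36, and to 18.7 against 2.5 in Fraction 6. Naive and marginal zone B cell markers, several of which memory cells share, summed to 535 to 646 and 656 to 764 FPKM, and 5 of 9 rose and 4 fell. The part of any naive cells in the rises given above was not tested.

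The 2 steps of the path were compared by testing, in the same limma model, whether the change from Fraction 6 to Fraction 7 differed from that between Fraction 5 and Fraction 6. The steps share the 2 Fraction 6 libraries. The difference was called for 416 genes (3.69%), 171 positive (1.52%) and 245 negative (2.17%), and 351 of them were also called between Fraction 7 and Fraction 5. Among fallers, the difference was negative for 147, towards a later fall, and positive for 101, towards an earlier one. Among risers it was positive (later) for 55 and negative (earlier) for 48. These counts take in genes whose 2 steps went in opposite directions. Il4i1, counted with the later falls, had means of 195, 281 and 93.5 FPKM in Fractions 5, 6 and 7. Tuba1a, counted with the earlier falls, had means of 92.3, 36.8 and 47.7. The count of 416 fell to 111 with only these gates in the fit, to 56 without Fraction 6 library 1 and to 92 without its library 2.

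Division genes fell mostly at the earlier step, with the loss of Bcl6-YFP. The median mitosis gene differed by -1.82 from Fraction 5 to Fraction 6 and by -0.66 from Fraction 6 to Fraction 7. The difference of steps was positive for 46 of 46 and passed the test for 20, though for only 2 with these gates alone in the fit. Kif20a, a kinesin of cell cleavage, measured 13.2, 17.9 and 13.2 FPKM, then 2.55 and 2.43, then 1.71, 2.39 and 2.03, so that the last gate lay only just under the middle one. Germinal centre identity genes had the other shape, with median steps of -1.05 and -1.54. In that list 5 genes passed as later falls and 1, Pou2af1, as an earlier fall, and only 2 later falls (Efnb1 and Gm600) passed with these gates alone or without Fraction 6 library 1, and 3 (with Mybl1) without its library 2. One of the 5 is Efnb1, on which the later step was sorted, so that its fall is no finding, and the others are Mef2b, Mybl1, Gm600 and Basp1. Gm600 measured 94.3, 97.6 and 96.4 FPKM, then 39.2 and 36.6, then 3.72, 4.48 and 4.38, and Mybl1 126, 118 and 122, then 52.9 and 50.1, then 5.28, 7.19 and 3.74. Both transcripts were still abundant in the pre-memory gate.

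**Figure D5:**
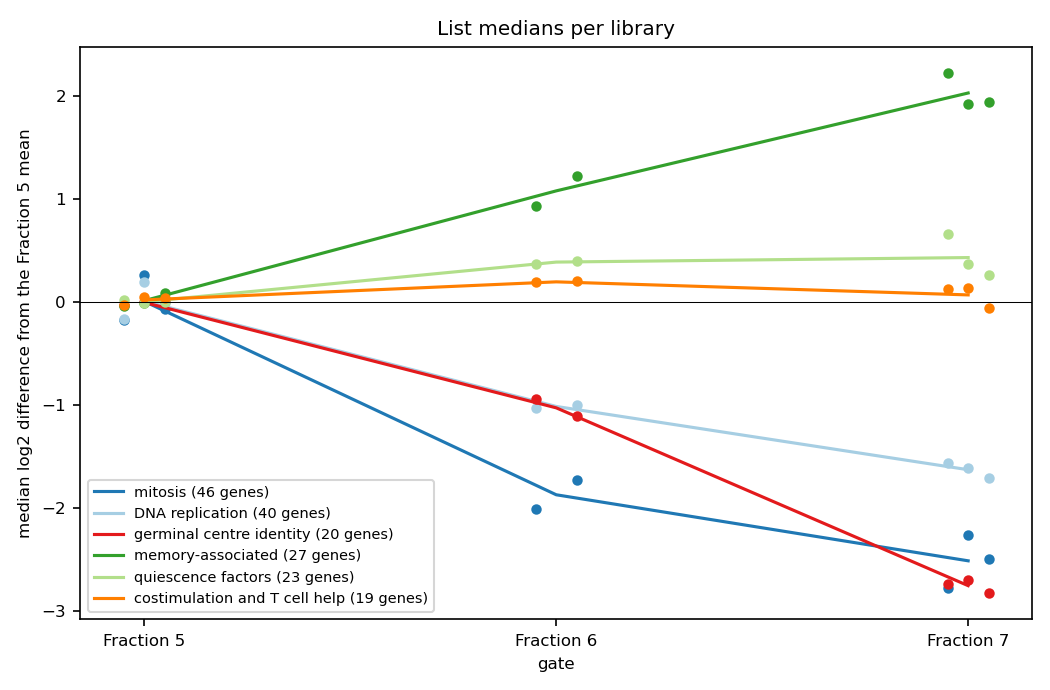
For each of 6 lists, points give each library's median over the list of log2(FPKM + 1) minus the Fraction 5 mean, and lines join gate means. The median change of the mitosis list is -1.82 at the first step and -0.66 at the second, against -1.05 and -1.54 for germinal centre identity.

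Some genes of T cell help fell mostly at the later step, with the loss of Efnb1. Cd83, an activation marker of light zone cells, measured 308, 282 and 329 FPKM in Fraction 5 and 308 and 312 in Fraction 6, before 109, 110 and 106 in Fraction 7. Cd86, Slamf1 and Il21r had the same shape, and for 5 of 19 costimulation genes the difference of steps was negative and passed the test. The rises of Klf2, Klf3, Ccr6 and S1pr1 leaned to the earlier step, each with a negative difference of steps that passed the test, whereas Ahnak, Pik3r6, a regulator of PI3 kinase gamma, Ccr1 and Cxcr3 rose mostly at the later one. Pik3r6 measured 0.0425, 0 and 0.0735 FPKM, then 0.272 and 0.326, then 8.90, 8.24 and 10.7. Every mature memory library was far above the other gates.

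A further set stood highest in the pre-memory gate. Among the 416 genes whose steps differed, the Fraction 6 libraries lay above all libraries of both other gates for 130 and below all of them for 34. The test favours such shapes, because the difference of steps grows as Fraction 6 moves outside the other gates. The share over all genes tested was not counted, and the 416 depended on the Fraction 6 libraries, as given above. Bhlhe40, the close relative of Bhlhe41, measured 5.95, 7.41 and 4.84 FPKM in Fraction 5, 26.8 and 27.4 in Fraction 6, and 13.2, 17.1 and 11 in Fraction 7. Bhlhe40 thus peaked where Bhlhe41 was still at 3.63 and 6.08. Zfp318, a factor for IgD splicing, peaked at 18.1 and 17.8, and Il4i1, a secreted amino acid oxidase, at 278 and 284. Bcl2a1b, an anti-death relative of Bcl2, measured 50.7, 55.8 and 52.1, then 80.9 and 101, then 39.7, 40.5 and 37.7, and Bcl2a1a and Bcl2a1d had the same shape, though reads of these near-identical genes may be split between them. Slpi, a protease inhibitor, showed the reverse, at 18.7, 15.1 and 30.7, then 9.29 and 11.5, then 34.0, 131 and 55.7.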

How the data were processed

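The data are 16 RNA-seq libraries from 6 sort gates, prepared from TRIzol-extracted RNA with a NEBNext Ultra RNA kit per the labels' protocols. This kit does not mark strand, and reads of genes that overlap on opposite strands cannot be told apart. The authors deposited 1 table of FPKM values. The submitters' processing notes name TopHat2 2.0.8, Cufflinks 2.1.1 and the mouse build mm9. The table names 23234 genes, and 1 row without a name was left out.

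A gene was tested if 2 or more libraries reached 1 FPKM, which held for 11266 genes, on values of log2(FPKM + 1). One limma 3.58.1 model (R 4.3.3) over all 16 libraries, with the 6 gates as means and a variance trend, gave Fraction 7 minus Fraction 5 and the difference of the 2 steps through Fraction 6. P-values were adjusted by Benjamini-Hochberg over all genes, with a threshold of 0.05. Fold changes on this scale understate changes of low genes, and folds printed as such are ratios of mean FPKM. FPKM are not counts, so no count model was used.

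The comparison and the 42 gene lists were chosen with earlier results of these data known, so the lists are described by counts and medians without a test of their own. Named genes are the 12 largest rises and 12 largest falls with at least 5 FPKM in the higher gate and no overlap between libraries, the sort and label genes, up to 4 members in each direction per list by adjusted p, up to 2 markers per other cell type, and 6 genes in each direction of the step test. Other list members named were chosen after their values were seen, as were the RefSeq promoters (GRCm38.p6), for which the first listed window of each gene was used. A few genes named by this rule are left out here. List symbols were matched through RefSeq names, including older ones.

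Data were simulated with 200 of 11266 genes changed, a far smaller share than the 47.6% called in the data. For Fraction 7 against Fraction 5 the model recovered 97% of log2 changes of 1 and 99% of those of 2, calling 13 unchanged genes. For the step test it recovered 65% and 96%, calling 5. Recovery was not measured separately for low genes, for earlier steps or for peaks in the pre-memory gate. The shares recovered therefore do not speak for such genes. Alternatives were 2 other scalings, a pseudocount of 0.1, no filter or 5 FPKM, fewer groups, a block for the replicate number, library weights and libraries left out. Figures were drawn with Python 3.11.15, pandas 2.3.3, numpy 2.4.6 and matplotlib 3.10.9.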

Additional observations from a re-analysis of the deposited data

How the results depend on the processing

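The count of 5368 genes between Fraction 7 and Fraction 5 stayed between 4497 (filter of 5 FPKM) and 5837 (array weights) under the settings with all libraries of both gates, and between 4733 and 5254 when 1 library was left out; 1312 calls were lost in at least 1 of those fits. With Fraction 7 library 1 alone, 9 of the 5368 genes changed sign. The 416 genes of the step test were 644 after quantile normalization, 660 with array weights and 111 with only the gates compared, and between 56 and 529 with 1 library left out; the cause was not tested beyond the 2 libraries that Fraction 6 holds. Of 225 named genes, 214 passed and 13 of these lost their call when some single library was left out. None of the 214 changed direction under any setting run. Most of them were named for a small adjusted p or for gates that did not overlap, so these counts are no separate support. The filter of 5 FPKM left 10 risers on the interferon list and 7 on the plasma cell list, since fewer genes were tested. Replicate numbers did not pair the libraries: the deviations of same-numbered Fraction 5 and Fraction 7 libraries correlated at 0.0025, -0.065 and -0.18, and with the replicate number as a block 5498 genes were called between the gates and 508 in the step test. Depth is not known in reads, so no floor can be set for genes listed at 0.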

Other observations

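Genes outside the lists showed 2 further shapes through the pre-memory gate, picked after their values were seen. Ccl22, a chemokine that attracts T cells, measured 0.681, 0.221 and 0.0461 FPKM in Fraction 5, 9.28 and 7.06 in Fraction 6, and 0.297, 1.73 and 2.14 in Fraction 7. The pre-memory libraries were above all others. Egr3, an early response factor downstream of the antigen receptor, measured 10.2, 9.61 and 12.9, then 18.2 and 21.0, then 7.19, 6.87 and 9.92. Tagln2, an actin-binding protein, was near-level in the first 2 gates (38.8 to 50.8 and 37.2 to 38.5 FPKM) and stood at 186, 120 and 148 in mature memory. The tubulin genes Tuba1a and Tubb4b were at 92.3 ± 13 and 105 ± 17 FPKM (SD, n = 3) in Fraction 5, lowest in Fraction 6, at 36.5 to 37.2 and 41.3 to 44.5, and at 44.4 to 52.8 and 51.0 to 67.2 in mature memory, log2 changes of -0.93 and -0.83 from Fraction 5 to Fraction 7.

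The number of genes listed above 0 was 14459, 16782 and 18234 in the Fraction 7 libraries 1, 2 and 3, against 14012 to 15152 in Fraction 5. The same libraries 2 and 3 had the higher Sdc1, Igj and Xbp1 values. The number of genes at 1 FPKM or more differed less, at 10379 to 10552 in Fraction 7 and 10267 to 10324 in Fraction 5.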
